A study of Mus musculus with 2 samples.

Results

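XY germ cells that had spent 24 h in culture with MEK1/2 blocked were compared with XY germ cells taken at the start, to see which changes of the first 24 h of male development took place without MEK activity. The comparison holds 8 of the 40 germ cell libraries of the study, chosen by their labels. These are the 4 XY 24 h MEKi libraries (replicates 1, 2, 4 and 6) and the 4 XY 0 h libraries (replicates 2, 3, 5 and 6). The 4 XY 24 h DMSO libraries (replicates 2, 3, 4 and 5) are given beside them as the normal change over the same time, and all 12 were made in the same library pool, which is 1 of 2.

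The embryos were wild type at E12.5, from Swiss mice crossed with 129svJT2 mice that carry Oct4-eGFP, a transgene whose green fluorescence marks germ cells. XY 0 h germ cells were not cultured. XY 24 h MEKi germ cells came from gonads kept for 24 h, with the mesonephros attached, in medium with 500 nM PD0325901/Mirdametinib, which inhibits MEK1 and MEK2, and XY 24 h DMSO germ cells from gonads kept in the same way with the vehicle. The mesonephros was then removed, gonads from more than 1 embryo were dissociated as 1 pool, and GFP-positive cells were sorted by flow cytometry. The inhibitor therefore reached the somatic cells of the gonad as well as the germ cells. The labels number the replicates without saying whether they came from separate litters or culture days, so p-values measure the spread between these pools. Because the 0 h gonads were not cultured, 24 h of development and 24 h in culture cannot be told apart.

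ERK signalling runs from a growth factor receptor through RAS, RAF, MEK and ERK. ERK switches on transcription of its own brakes (the DUSP phosphatases and the Sprouty proteins) and of ETS transcription factors such as ETV4 and ETV5, so the RNA of these genes is widely used as a readout of the pathway. In the foetal testis, germ cells leave the pluripotent state, stop dividing and take the male path, in which NANOS2 represses meiosis, while in the ovary retinoic acid and BMP lead germ cells to express STRA8 and enter meiosis.

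Germ cell markers were present in all 3 groups. Of 10 germ cell markers, limma called 0 with MEKi v 0 h, and 0 had an unadjusted p under 0.05. The tests against 1.5-fold in edgeR (glmTreat) and DESeq2 also called 0. The quasi-likelihood test of edgeR against no change, with an observed fold over 1.5, called 2 of the 10, but it called 17.4% of all genes tested with MEKi v 0 h, against 5.25% by glmTreat and 2.82% by DESeq2. In DMSO v 0 h, limma and DESeq2 called 0 of the 10 and glmTreat 1 (of all genes, 2.43% by DESeq2 and 4.6% by glmTreat), and 3 had an unadjusted p under 0.05. Together the 10 took 0.34 to 0.396% of the counts at 0 h, 0.385 to 0.496% in DMSO and 0.449 to 0.455% with MEKi, so that each MEKi library lay above each 0 h library. Ddx4, an RNA helicase of germ cells, was at 222, 204, 228 and 247 CPM (the count scaled to library size) at 0 h and at 229, 214, 230 and 199 CPM with MEKi. Of 14 gonadal somatic markers tested, the 3 tests against 1.5-fold called 0 with MEKi v 0 h, 4 had an unadjusted p under 0.05 in limma, and the quasi-likelihood test called 3, near its 17.4% of all genes. The share of all genes at an unadjusted p under 0.05 was not computed, here or for the lists below. In DMSO v 0 h, limma called 1 of the 14 higher, Rspo1, a signalling factor of gonadal somatic cells, at 2.63 to 7.13 CPM at 0 h, 14.4 to 29.6 CPM in DMSO and 9.52 to 13.1 CPM with MEKi (log2 2.14, adjusted p = 0.000254 in DMSO). All 22 listed took 0.00595 to 0.0138% of the counts at 0 h, 0.00658 to 0.0166% in DMSO and 0.00672 to 0.0102% with MEKi (MEKi v 0 h, p = 0.914, adjusted p = 0.914 by a two-sided exact permutation test over 70 regroupings of 4 against 4 libraries). The Leydig cell marker Insl3 was at 0 in all 12 libraries and Amh of Sertoli cells at 0 in the MEKi libraries, 0 to 0.259 CPM at 0 h and 0 to 1.55 CPM in DMSO. Sox9, also of Sertoli cells, was at 4.67 to 16.9 CPM at 0 h, 7.56 to 60.1 CPM in DMSO and 14.3 to 20.7 CPM with MEKi. In such bulk samples, fewer cells of a type and less RNA per cell cannot be told apart.

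Total counts were 1178953 to 3894977 per library at 0 h, 2044852 to 3781288 in DMSO and 1938080 to 2350963 with MEKi. The XY 0 h libraries carry the same sample indexes as XY 72 h DMSO libraries of the other pool. The XY 24 h DMSO libraries share theirs with XY 72 h MEKi libraries of that pool. A part of their counts, 1.68 to 4.85% at 0 h and 3.81 to 8.13% in DMSO, followed the library with the same index. The 4 XY 24 h MEKi libraries share their index with no other library. A gene that is high in the 72 h partner libraries could therefore look higher at 0 h or in 24 h DMSO than it was, and not with 24 h MEKi. Where taking out this carried-over part ended a call given here, the value without it is given beside the result.

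After 24 h with MEKi, 255 genes were higher (1.67% of the 15252 tested) and 286 lower (1.88%) than at 0 h, 541 in all (3.55%). After 24 h in DMSO, 246 genes were higher (1.61%) and 203 lower (1.33%), 449 in all (2.94%). A gene was called when limma gave an adjusted p (Benjamini-Hochberg over all genes tested) under 0.05 for a change larger than 1.5-fold. Leaving out XY 0 h replicate 3 took the number of genes called to 332 with MEKi, from 541, and to 263 in DMSO, from 449. The genes higher fell to 132 in each comparison and the genes lower in DMSO to 131, and without DMSO replicate 5 the genes lower in DMSO were 121. Both comparisons use the same 4 XY 0 h libraries, so their likeness is in part built in, and the values of each are given side by side. Of the 246 genes that rose in DMSO, 131 were also called higher with MEKi and 0 called lower, with a median log2 change of 2.04 in DMSO and 1.55 with MEKi. Of the 203 that fell, 128 were also called lower with MEKi and 0 called higher, and their values fell by a median of 1.74 on the log2 scale in DMSO and 1.51 with MEKi. These genes were selected by their DMSO values, so the 2 medians are not a test of a difference.

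Whether a change differed between MEKi and DMSO was tested directly, since the difference of the changes from 0 h is the difference between the cultured groups. This gave 8 genes higher with MEKi (0.0525%) and 17 lower (0.111%), 25 in all (0.164%). Without DMSO replicate 4 the number higher was 5. Of the genes called in DMSO v 0 h, 7 of the 246 that rose and 2 of the 203 that fell were among the 25. Nanos2, Ret, Nab2, Tmem130 and Fbxo41 rose in DMSO and were lower with MEKi, Stra8 and Spp1 rose in DMSO and were higher still with MEKi, and Etv1 and Etv4 fell in DMSO and were lower still with MEKi. A gene that the direct test did not call was not thereby shown to change to the same extent.

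**Figure D1:**
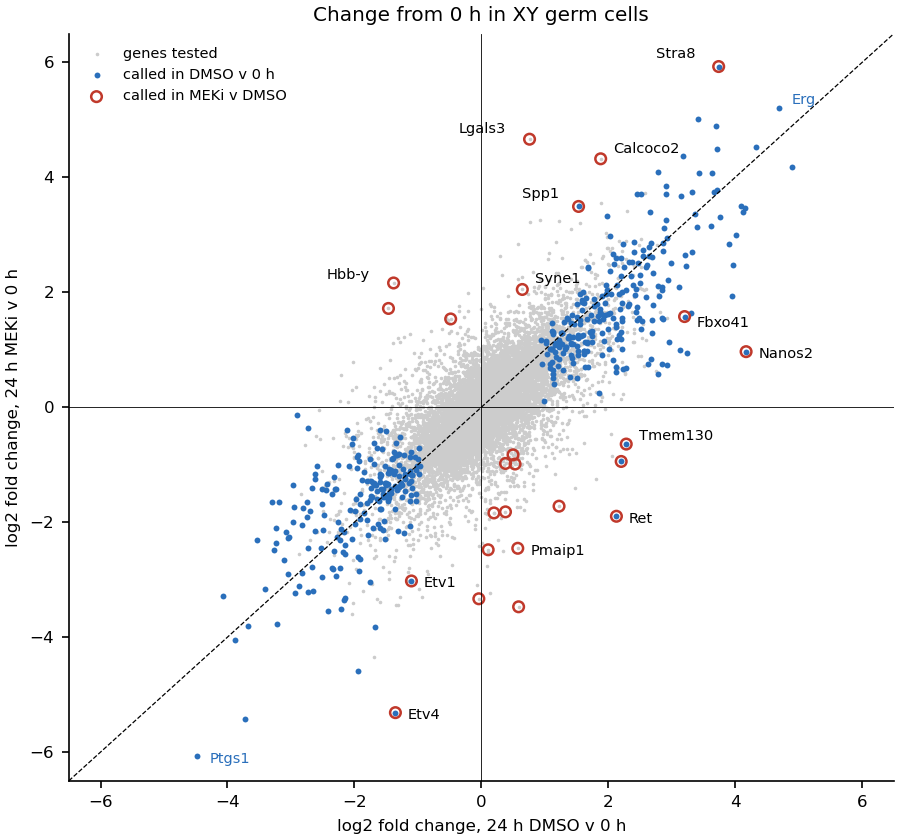
Log2 fold change from 0 h in XY germ cells, after 24 h in DMSO (x axis) and after 24 h with MEKi (y axis), for the 15252 genes tested (grey). Blue points are the 449 genes called in DMSO v 0 h, red rings the 25 called in MEKi v DMSO, and the dashed line marks equal change. The axes share the 0 h libraries, which pulls points towards the dashed line. Nanos2 and Ret lie far to the right at a low or negative MEKi value, Stra8 lies far above the line, and Erg and Ptgs1 lie at the ends of the cloud.

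Response genes of ERK were the list with the most genes called lower with MEKi. Of 22 response genes tested, 8 were lower than at 0 h (the ETS factors Etv1, Etv4 and Etv5, the phosphatases Dusp4 and Dusp6 and the Sprouty genes Spry1, Spry2 and Spry4) and 1, Egr1, was higher, with a median log2 change of -0.83 against -0.01 over all genes. Over all genes, 1.88% were lower and 1.67% higher. The lists differ in size and were chosen with earlier results of these data known. In DMSO, Etv1, Etv4 and Dusp4 were lower and Nab2 higher than at 0 h, and the median was -0.51. The DMSO call of Dusp4 was lost without DMSO replicate 2 or 3 (adjusted p = 0.0573 and 0.0957 by limma).

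Etv4 (chromosome 11, 101660568 to 101676197, GRCm39) was at 70.6, 77.6, 66.8 and 76.4 CPM at 0 h, at 32.1, 17.2, 32.0 and 30.3 CPM in DMSO and at 3.71, 1.06, 1.06 and 1.09 CPM with MEKi. The 3 groups did not overlap, with MEKi lowest and 0 h highest. The log2 change from 0 h was -5.31 (SE 0.448, adjusted p = 1.42e-11 by limma) with MEKi and -1.35 (SE 0.159, adjusted p = 0.000557) in DMSO, and the difference between them was -3.96 (SE 0.458, adjusted p = 1.24e-06). Etv1 (chromosome 12, 38828851 to 38920483) was at 110 to 125 CPM at 0 h, 35.4 to 79.8 CPM in DMSO and 9.31 to 23.3 CPM with MEKi, again with no overlap. Its log2 changes were -3.02 with MEKi (adjusted p = 1.42e-11 by limma) and -1.10 in DMSO (adjusted p = 0.0225), a difference of -1.92 (adjusted p = 0.000689). The DMSO call of Etv1 was lost without XY 0 h replicate 3 or DMSO replicate 3 or 5 (adjusted p = 0.115 to 0.153 by limma) and with the carried-over counts taken out (log2 -1.04, adjusted p = 0.0742).

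Dusp6 (chromosome 10, 99086564 to 99103361), which dephosphorylates ERK, was at 51.3, 52.9, 48.1 and 50.2 CPM at 0 h, at 26.4, 20.8, 29.6 and 31.1 CPM in DMSO and at 13.9, 9.56, 20.6 and 7.12 CPM with MEKi. Every MEKi library lay below every DMSO library, and every DMSO library below every 0 h library. The change from 0 h passed the test with MEKi (log2 -2.07, SE 0.24, adjusted p = 8.01e-06 by limma), but the difference from DMSO was -1.22 with a 95% confidence interval of -1.73 to -0.71 and did not (adjusted p = 0.89). The same held for Spry2, at 25.4 to 53.4 CPM at 0 h and 7.44 to 10.2 CPM with MEKi (log2 -2.26, adjusted p = 3.12e-05 by limma), for which the difference from DMSO was -1.38 (interval -2 to -0.77). Etv5 (log2 -1.67), Dusp4 (-2.06), Spry1 (-2) and Spry4 (-3.30) also fell from 0 h with MEKi, and their differences from DMSO, -0.79, -0.94, -0.76 and -2.37, did not pass.

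The immediate early gene Egr1, a zinc finger factor, moved the other way. It was at 23.3, 28.3, 37.4 and 20.4 CPM at 0 h, at 39.9, 40.6, 19.6 and 23.3 CPM in DMSO and at 78.0, 58.4, 66.7 and 67.3 CPM with MEKi. The MEKi libraries lay above all others, while DMSO and 0 h overlapped. The difference from DMSO, 1.33 (interval 0.88 to 1.78), did not pass (adjusted p = 0.273 by limma). The log2 change of Egr1 from 0 h with MEKi was 1.39 (SE 0.226, adjusted p = 0.0143 by limma), and the call was lost without XY 0 h replicate 3 or 6 or MEKi replicate 1 (adjusted p = 0.0581 to 0.0859). Nab2, a corepressor that binds EGR1, rose in DMSO from 1.3 to 3.53 CPM at 0 h to 5.16 to 28.1 CPM, and was at 0.464 to 2.19 CPM with MEKi. The difference between MEKi and DMSO was -3.15 (SE 0.552, adjusted p = 0.00847 by limma), with adjusted p = 0.175 without MEKi replicate 1, and the DMSO change of 2.20 was not called without XY 0 h replicate 3 (adjusted p = 0.368). The genes of the pathway itself (FGF receptors and the RAF, MEK and ERK kinases) held 17 tested members, of which Fgfr1 was called, lower both with MEKi (log2 -1.62) and in DMSO (-1.47).

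**Figure D2:**
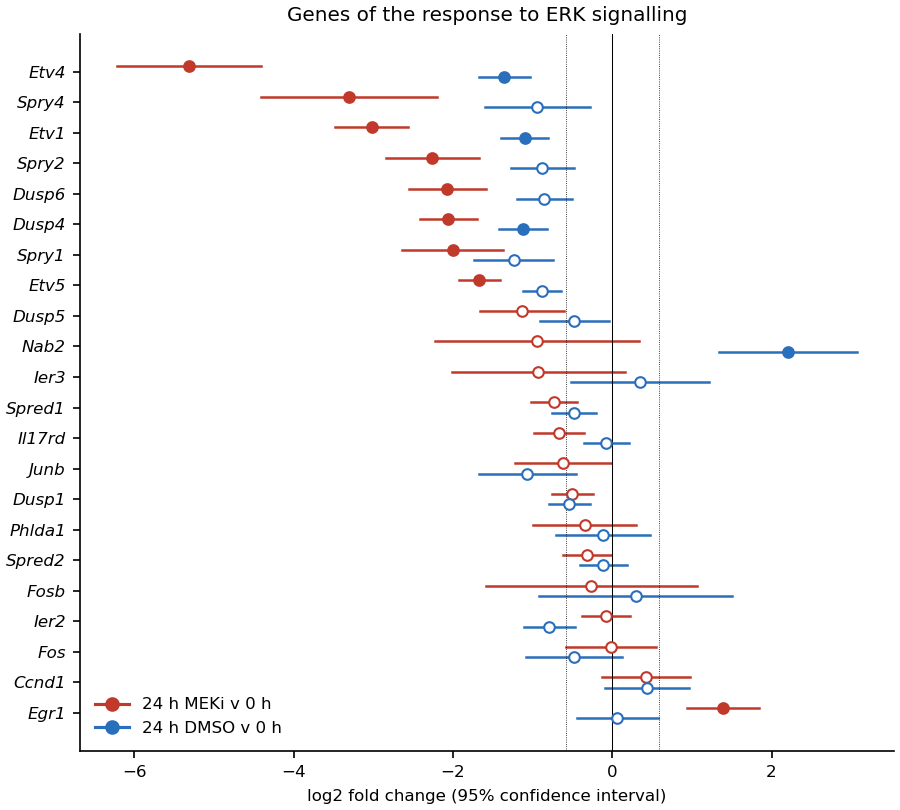
Log2 fold change from 0 h with its 95% confidence interval for the 22 response genes of ERK tested, with MEKi (red) and in DMSO (blue). Filled points passed the test against 1.5-fold, which the dotted lines mark. The 8 genes at the top fell with MEKi and have less negative values in DMSO, and Egr1 at the bottom has the highest MEKi value. Both comparisons use the same 0 h libraries.

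The promoters of Etv4 and Dusp6 are shown. Etv4 had the largest fall of the 8 genes. Dusp6 is the 1 of the 8 with a match to CGGAAG in the 200 bases before the start of its main transcript. CGGAAG is a sequence that ETS factors bind and was searched on either strand. Other forms of their binding site were not searched. The sequences are GRCm39, printed 5′ to 3′ on the strand of the gene, with the match in capitals (here as CTTCCG, the reverse complement). A match was found in 18.4% of 12419 promoters of the same length, so 1 of 8 is no more than the share over all promoters, and it describes letters, not a bound site.
Etv4, chr11:101676198-101676397, minus strand: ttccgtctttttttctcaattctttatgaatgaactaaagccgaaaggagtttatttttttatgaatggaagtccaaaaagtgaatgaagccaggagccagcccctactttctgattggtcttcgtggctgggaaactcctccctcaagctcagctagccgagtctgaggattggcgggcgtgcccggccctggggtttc
Dusp6, chr10:99098868-99099067, plus strand: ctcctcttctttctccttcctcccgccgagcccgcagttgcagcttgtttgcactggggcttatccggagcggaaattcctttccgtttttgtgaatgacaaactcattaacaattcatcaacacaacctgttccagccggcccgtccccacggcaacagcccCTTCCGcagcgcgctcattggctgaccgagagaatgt

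Nanos2, which holds XY germ cells on the male path, was the male fate gene whose normal rise did not pass the test with MEKi. It was at 0.439, 1.3, 0.891 and 0.784 CPM at 0 h, at 11.9, 37.5, 13.8 and 24.1 CPM in DMSO and at 1.86, 1.06, 2.12 and 2.74 CPM with MEKi. Every DMSO library lay above every other library, and MEKi overlapped 0 h. The log2 change was 4.17 (SE 0.573, adjusted p = 9.37e-06 by limma) in DMSO and 0.97 (SE 0.721, adjusted p = 1) with MEKi, and the difference was -3.20 (SE 0.501, adjusted p = 0.00152). With the carried-over counts taken out, these became 5.57, 2.39 (adjusted p = 0.234 by limma) and -3.18.

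Ret, the receptor tyrosine kinase for GDNF (chromosome 6, 118128706 to 118174769), went the same way in DMSO, from 8.34, 8.82, 1.78 and 7.45 CPM to 28.5, 26, 36.8 and 31.6 CPM. With MEKi it was at 0.929, 2.12, 4.23 and 1.09 CPM, below every DMSO library and overlapping 0 h (log2 -1.90 from 0 h, adjusted p = 0.18 by limma, and called lower without XY 0 h replicate 5, -2.15, adjusted p = 0.0478, and by glmTreat, -1.79, adjusted p = 0.0408). The difference between MEKi and DMSO was -4.03 (SE 0.492, adjusted p = 3.83e-06 by limma). Tmem130, which encodes a membrane protein, was at 0.891 to 4.93 CPM at 0 h, 11.4 to 24.0 CPM in DMSO and 0.929 to 6.88 CPM with MEKi (difference -2.92, adjusted p = 0.000689 by limma). Fbxo41, an F-box gene, was at 5.26 to 7.45 CPM at 0 h, 51.9 to 66.7 CPM in DMSO and 15.4 to 23.0 CPM with MEKi, with no overlap. It was called higher in DMSO (log2 3.20) and with MEKi (1.58), the latter lost without XY 0 h replicate 2, 3 or 6 or MEKi replicate 4 or 6 (adjusted p = 0.066 to 0.259 by limma). The difference of -1.62 (adjusted p = 0.00213 by limma) was lost without MEKi replicate 1 (adjusted p = 0.0576).

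Other male fate genes did not show this pattern. Of 13 tested, Brdt (a bromodomain protein of the testis) was higher with MEKi than at 0 h, and Lin28a, Nxf2 and Sohlh1 were lower, with a median log2 change of 0.10. Brdt was at 41.2, 38.4, 47.2 and 39.6 CPM at 0 h, at 101, 89.6, 91.5 and 103 CPM in DMSO and at 84.5, 73.3, 109.5 and 83.8 CPM with MEKi. The cultured groups overlapped each other and not 0 h, with log2 changes of 1.10 (adjusted p = 0.0143 by limma) with MEKi and 1.28 (adjusted p = 0.000568) in DMSO, and a difference of -0.17 (interval -0.43 to 0.08). The MEKi call of Brdt was lost without XY 0 h replicate 3 or MEKi replicate 4 (adjusted p = 0.149 and 0.116 by limma). Dppa4 (log2 0.10 with MEKi and 0.39 in DMSO) did not pass in either.

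The calls of 3 further genes depended on the carried-over counts. Nxf2, Sohlh1 and Spocd1, all known from male germ cells, were called lower with MEKi than at 0 h at log2 -3.33, -3.47 and -4.34. Without the carried-over counts these values were -1.36, -0.54 and -0.75, each with adjusted p = 1 by limma. The differences of Nxf2 and Sohlh1 from DMSO, -3.29 and -4.06, became 0.69 and -0.63 (adjusted p = 1 by limma). Of 24 genes of the piRNA pathway and DNA methylation, Spocd1 was the one called lower with MEKi, and Tet2, a DNA demethylase, the one called higher. Tet2 rose from 12.5 to 16.9 CPM at 0 h to 38.1 to 45.2 CPM with MEKi and 35.9 to 47.6 CPM in DMSO (log2 1.45 and 1.46, difference -0.01, interval -0.34 to 0.31).

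**Figure D3:**
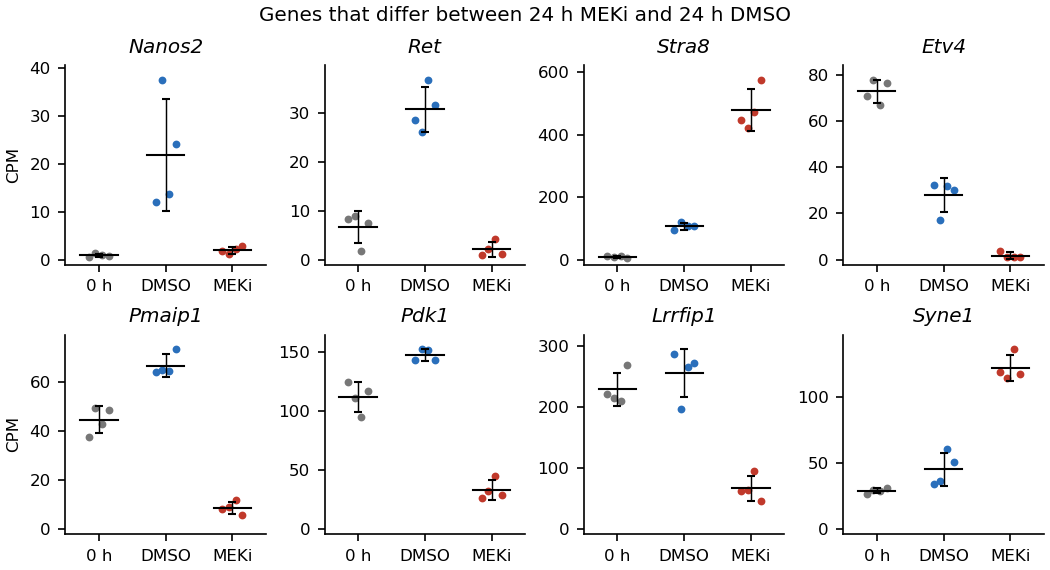
CPM in each library of 8 genes called in MEKi v DMSO, with 4 libraries in each of the 0 h, DMSO and MEKi groups (points), the mean (line) and 1 SD (bars). The scale differs between genes. Nanos2 and Ret are high in DMSO only, Stra8 and Syne1 are highest with MEKi, and Etv4, Pmaip1, Pdk1 and Lrrfip1 are lowest with MEKi.

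Some genes of meiotic entry rose over 24 h with and without the inhibitor, and the rise of Stra8 was larger with it. Of 30 tested, Stra8, Rec8, Sycp1 and Mnd1 were higher with MEKi than at 0 h and 0 lower, with a median log2 change of 0.56, and Stra8, Rec8, Sycp1, Sycp3 and Msh4 were higher in DMSO, with a median of 0.41. Without the carried-over counts, 6 were higher with MEKi and the medians were 0.64 and 0.11. The DMSO call of Sycp3 was lost without XY 0 h replicate 3 or DMSO replicate 3 (adjusted p = 0.127 and 0.0508 by limma) and without the carried-over counts (log2 1.17 against 1.22, adjusted p = 0.0518). With MEKi the change of Sycp3, 1.06, did not pass (adjusted p = 0.0803 by limma), but it was called without MEKi replicate 2 (1.15, adjusted p = 0.033) and without the carried-over counts (1.35, adjusted p = 0.00224), and in 8 of 20 alternatives in all. Its difference from DMSO was -0.16.

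Stra8 (chromosome 6, 34897098 to 34916279), the gatekeeper of meiotic entry, was at 12.7, 7.26, 9.8 and 5.09 CPM at 0 h, at 94.4, 120, 106 and 106 CPM in DMSO and at 447, 421, 472 and 576 CPM with MEKi. The groups were far apart. The log2 change from 0 h was 5.93 (SE 0.367, adjusted p = 1.64e-16 by limma) with MEKi, the largest rise of the 255 genes called, and 3.74 (SE 0.379, adjusted p = 1.69e-08) in DMSO. Of the DMSO level, 61.2 CPM on average followed the 72 h MEKi library with the same index, and the DMSO change of 3.74 includes these counts. Without them the difference between MEKi and DMSO went from 2.19 (SE 0.174, adjusted p = 2.07e-09 by limma) to 3.53 (adjusted p = 3.34e-14). With no filter on low counts, the adjusted p by limma was 0.0624 for the difference and 0.168 for the DMSO change from 0 h (log2 3.68).

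Rec8, the meiotic cohesin, was at 8.78, 7, 12.5 and 12.5 CPM at 0 h, at 31.6 to 41.9 CPM in DMSO and at 66.9, 67.5, 63.0 and 95.8 CPM with MEKi. The groups did not overlap, and the log2 changes were 2.97 (adjusted p = 7.84e-10 by limma) with MEKi and 2.03 (adjusted p = 0.000147) in DMSO. The difference of 0.95 (interval 0.59 to 1.30) did not pass against 1.5-fold (adjusted p = 1 by limma, and 0.0812 without the carried-over counts). Sycp1, of the synaptonemal complex, rose in both, from 62.4 to 90.5 CPM at 0 h to 177 to 308 CPM in DMSO and 177 to 273 CPM with MEKi (log2 1.55 and 1.45, difference -0.10, interval -0.35 to 0.14). Mnd1 (log2 0.99 with MEKi, adjusted p = 0.0388 by limma) was lost when any of 7 of the 8 libraries was left out, MEKi replicate 2 being the exception (adjusted p = 0.059 to 0.234). Of 11 retinoic acid genes, Aldh1a2, which makes retinoic acid, and Crabp2, which binds it, were higher with MEKi (log2 1.79 and 2.08, adjusted p = 0.00347 and 0.0194 by limma). Both were lost without XY 0 h replicate 3 (adjusted p = 0.134 for Aldh1a2 and 0.127 for Crabp2 by limma), Crabp2 also without XY 0 h replicate 6 (0.0745), and their differences from DMSO were 0.28 and 0.59 and did not pass. Aldh1a2 was also called higher in DMSO (log2 1.51, adjusted p = 0.047 by limma), a call lost without XY 0 h replicate 2, 3 or 6 or DMSO replicate 3, 4 or 5 (adjusted p = 0.073 to 0.562) and without the carried-over counts (log2 1.53, adjusted p = 0.157).

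The Stra8 promoter is shown because retinoic acid acts through receptors that bind AGGTCA motifs, and Stra8 had the largest rise. The 200 bases before its main transcript (GRCm39, on the strand of the gene) hold 1 match to AGGTCA or its reverse complement TGACCT (capitals). A match was found in 8.62% of promoters of this length, and it describes letters, not a bound site.
Stra8, chr6:34897650-34897849, plus strand: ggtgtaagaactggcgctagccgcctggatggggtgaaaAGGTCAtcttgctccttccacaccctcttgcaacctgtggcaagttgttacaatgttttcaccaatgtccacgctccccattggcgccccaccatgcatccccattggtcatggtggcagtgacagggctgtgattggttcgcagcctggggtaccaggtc

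Many of the largest changes in DMSO were called with MEKi as well. Erg, an ETS factor known from blood vessels (chromosome 16, 95160028 to 95387452), was at 0.439, 0.519, 0.891 and 0.784 CPM at 0 h, at 19.2, 15.1, 18.9 and 24.9 CPM in DMSO and at 23.7, 28.7, 34.4 and 36.1 CPM with MEKi. Both cultured groups lay above 0 h and overlapped each other, with log2 changes of 5.2 (adjusted p = 6.28e-10 by limma) with MEKi and 4.70 (adjusted p = 1.9e-08) in DMSO and a difference of 0.50 (interval 0.13 to 0.88). The endothelial markers Cdh5, Kdr, Tie1 and Emcn were at 0 to 1.59 CPM in the MEKi libraries, while Pecam1, which germ cells also express, was at 67.9 to 93.1 CPM there and 93.6 to 109.7 CPM at 0 h. The part of endothelial cells in the Erg values, with MEKi or in DMSO, was not tested. Upp1, uridine phosphorylase, was at 4.41 to 8.91 CPM at 0 h, 45.7 to 87.0 CPM in DMSO and 48.3 to 68.8 CPM with MEKi, a difference of 0.01 (interval -0.32 to 0.33). Oasl2, an interferon-induced gene, went from 0.392 to 3.07 CPM to 10.6 to 16.4 CPM with MEKi (log2 3.14, adjusted p = 0.000116 by limma) and 11.4 to 19.3 CPM in DMSO (log2 3.40). Without the carried-over counts the MEKi changes of Erg, Upp1 and Oasl2 were 6.22, 4.15 and 4.11. Asb9 (log2 4.53 with MEKi and 4.33 in DMSO), Ddr2, a collagen receptor (4.90 and 3.70), and Nfix, a transcription factor (4.09 and 2.78), were called higher in both as well. The difference of Nfix, 1.31, was called when the carried-over counts were taken out (1.68, adjusted p = 0.0116 by limma).

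Ptgs1, a cyclooxygenase (chromosome 2, 36120438 to 36142287), had the largest fall of the 286 genes called. It was at 36.4, 45.9, 47.2 and 34.9 CPM at 0 h, at 0.518, 2.6, 2.06 and 2.16 CPM in DMSO and at 0, 2.12, 0 and 1.09 CPM with MEKi. The cultured groups overlapped each other far below 0 h, and the log2 change was -6.08 (SE 0.58, adjusted p = 5.39e-10 by limma) with MEKi and -4.48 (SE 0.433, adjusted p = 1.95e-09) in DMSO. Slc7a7, an amino acid transporter, fell from 20.5 to 37.7 CPM to 0.548 to 3.71 CPM with MEKi and 0.521 to 5.5 CPM in DMSO (log2 -3.81 and -3.68).

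The NODAL pathway, which is active in XY germ cells around E12.5, gave 2 genes lower of 16 tested both with MEKi and in DMSO. Lefty2, an inhibitor and target of NODAL, went from 319, 282, 331 and 276 CPM at 0 h to 79.8, 51.1, 94.2 and 74.9 CPM in DMSO and 92.4, 108, 116 and 84.9 CPM with MEKi. The log2 changes were -1.98 and -1.59 (adjusted p = 6.78e-12 and 5.13e-09 by limma), and the difference was 0.38 (interval 0.11 to 0.66). Cripto, the NODAL coreceptor, was at 31.4 to 41.0 CPM at 0 h, 5.21 to 14.8 CPM in DMSO and 0 to 5.29 CPM with MEKi, which overlap at 1 library. Its log2 changes were -1.94 and -4.58, and the difference of -2.65 (interval -3.73 to -1.56) did not pass (adjusted p = 0.0953 by limma), but was called without MEKi replicate 4 (-3.29, adjusted p = 0.0255). Of 11 BMP targets, Smad7, a feedback inhibitor, fell with MEKi (log2 -2.11, adjusted p = 4.57e-07 by limma) and in DMSO (-1.60, adjusted p = 3.8e-05). In DMSO, Id3 was also lower (log2 -1.30, adjusted p = 0.0127 by limma) and Id4 higher (1.23, adjusted p = 0.0109), and the median over the list was -1.17 against -0.47 with MEKi. Both encode inhibitors of DNA binding, and with MEKi their changes of -1.01 and 0.84 did not pass, nor did their differences from DMSO, 0.29 (interval -0.14 to 0.72) and -0.39 (interval -0.70 to -0.08). The DMSO call of Id3 was lost without XY 0 h replicate 2 or 3 or DMSO replicate 4 or 5 (adjusted p = 0.0627 to 0.321 by limma), and that of Id4 without XY 0 h replicate 3 (0.0606). With MEKi, Id3 was called lower when XY 0 h replicate 5 was left out (log2 -1.19, adjusted p = 0.0208 by limma).

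Of 23 pluripotency and primordial germ cell factors, Cripto, Esrrb and Lin28a were lower with MEKi than at 0 h, and 0 were higher, and Cripto was lower in DMSO. Between MEKi and DMSO, limma, glmTreat and DESeq2 called 0 of the 23 (of all genes, 0.164, 0.256 and 0.151%), with 2 at an unadjusted p under 0.05 in limma. Esrrb, a nuclear receptor of the pluripotency network, fell from 72.9 ± 7.35 to 30.8 ± 4.29 CPM (SD, n = 4 libraries a group, log2 -1.27, adjusted p = 0.00307 by limma), with 42.0 ± 8.95 CPM in DMSO, and the difference from DMSO was -0.42 (interval -0.77 to -0.06, adjusted p = 1). Lin28a, an RNA-binding protein that blocks let-7, fell from 68.2 ± 17.8 to 28.9 ± 7.05 CPM (log2 -1.24, adjusted p = 0.0132 by limma), a call lost without XY 0 h replicate 6 or MEKi replicate 1 or 6 (adjusted p = 0.061 to 0.136), with 57.5 ± 10.0 CPM in DMSO, and the difference was -0.997 (interval -1.37 to -0.62, adjusted p = 1). Nanog was at 69.5 to 74.9 CPM at 0 h and 74.4 to 93.8 CPM with MEKi (log2 0.12, adjusted p = 1 by limma).

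**Figure D4:**
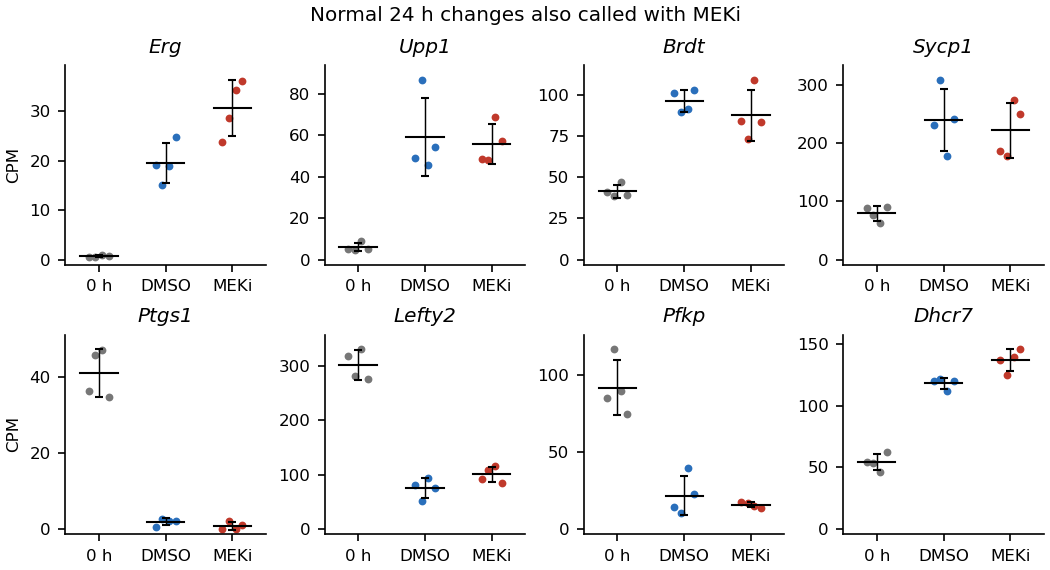
CPM in each library of 8 genes called both in DMSO v 0 h and in MEKi v 0 h, with 4 libraries in each group (points), the mean (line) and 1 SD (bars). The scale differs between genes. Both cultured groups lie apart from 0 h for each gene and, except for Dhcr7, overlap each other.

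Of 21 regulators of G1, cyclin D3 (Ccnd3) and E2f2 were lower than at 0 h with MEKi, and Ccnd3, E2f2 and cyclin E1 (Ccne1) in DMSO, where Cdkn1b was higher. Ccne1 was at 58.8 to 65.9 CPM at 0 h, 17.2 to 32.3 CPM in DMSO (log2 -1.40, adjusted p = 0.00268 by limma) and 32.5 to 38.9 CPM with MEKi (-0.88, adjusted p = 0.536), and the difference of 0.52 (interval 0.09 to 0.94) did not pass. Ccnd3 was at 162 to 178 CPM at 0 h, 53.3 to 86.6 CPM in DMSO and 55.0 to 102 CPM with MEKi, with log2 changes of -1.45 and -1.15 (adjusted p = 3.14e-06 and 0.00159 by limma). E2f2 fell by 1.96 on the log2 scale with MEKi (adjusted p = 0.00627 by limma), and by 1.79 in DMSO, the latter lost without XY 0 h replicate 3 or DMSO replicate 5 (adjusted p = 0.0827 and 0.152). Cdkn1b, the inhibitor p27 of cyclin-dependent kinases, was at 4.67 to 7.46 CPM at 0 h, 13.4 to 22.9 CPM in DMSO and 10.4 to 13.3 CPM with MEKi. It was called in DMSO (log2 1.62, adjusted p = 0.0295 by limma) and not with MEKi (0.98, adjusted p = 0.921), and the difference of -0.64 (interval -1.18 to -0.10) did not pass. The DMSO call of Cdkn1b was lost without XY 0 h replicate 2, 3 or 6 or DMSO replicate 3 or 5 (adjusted p = 0.0583 to 0.437 by limma). Of 24 genes of DNA replication and mitosis, limma, glmTreat and DESeq2 called 0 with MEKi, with 1 at an unadjusted p under 0.05 and 4 called by the quasi-likelihood test, near its 17.4% of all genes. Rrm2, a ribonucleotide reductase subunit, was lower in DMSO (log2 -1.22, against -0.82 with MEKi).

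Pmaip1 and Pdk1 were called lower with MEKi, both than at 0 h and than in DMSO, and were not called in DMSO v 0 h. Pmaip1, which encodes the pro-apoptotic protein NOXA, was at 37.3, 49.3, 42.8 and 48.6 CPM at 0 h, at 63.8, 64.6, 64.3 and 73.3 CPM in DMSO and at 7.89, 9.03, 11.6 and 5.47 CPM with MEKi. The groups did not overlap, with DMSO highest and MEKi lowest, at a log2 change from 0 h of -2.45 (SE 0.26, adjusted p = 3.74e-07 by limma) with MEKi and a difference from DMSO of -3.03 (SE 0.256, adjusted p = 1.25e-09). Bik, another pro-apoptotic member among the 13 tested of the BCL2 family, rose from 4.41 to 8.34 CPM to 23.9 to 38.3 CPM with MEKi (log2 2.43, adjusted p = 2.38e-05 by limma) and to 16.2 to 25.1 CPM in DMSO (log2 1.68, adjusted p = 0.0294). The difference of 0.75 (interval 0.31 to 1.2) did not pass (adjusted p = 1 by limma), and the DMSO call of Bik was lost without XY 0 h replicate 2 or 3 or DMSO replicate 3 or 4 (adjusted p = 0.0569 to 0.495). Pdk1, the kinase that shuts off pyruvate dehydrogenase, was at 124, 111, 94.5 and 117 CPM at 0 h, at 143, 152, 151 and 143 CPM in DMSO and at 26, 31.9, 44.4 and 29.0 CPM with MEKi. It was thus lowest in the MEKi libraries and highest in DMSO, with no overlap (log2 -1.82 from 0 h and -2.20 from DMSO, adjusted p = 5.94e-07 and 2.07e-09 by limma).

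Lrrfip1, whose protein binds nucleic acids, was at 222, 214, 210 and 269 CPM at 0 h, 287, 197, 265 and 272 CPM in DMSO and 61.8, 63.2, 94.7 and 46.0 CPM with MEKi. The MEKi libraries lay below all others (log2 -1.84 from 0 h and -2.04 from DMSO, adjusted p = 6.47e-10 and 4.73e-11 by limma), and the others overlapped. Syne1, a nuclear envelope protein gene, was at 26.8 to 31.0 CPM at 0 h, 33.7 to 60.2 CPM in DMSO and 115 to 136 CPM with MEKi (log2 2.05 and 1.40, adjusted p = 3.22e-09 and 0.00136 by limma). Calcoco2, an autophagy receptor gene, was at 2.08 to 4.39 CPM, 8.93 to 18.7 CPM and 52.9 to 65.2 CPM in the same order (log2 4.32 and 2.44, adjusted p = 3.22e-09 and 3.46e-06 by limma). Samhd1, a dNTP hydrolase, and Dgka, a diacylglycerol kinase, were lower with MEKi than in DMSO by 1.36 and 1.52 on the log2 scale (adjusted p = 0.000586 and 0.00184 by limma), and their changes from 0 h, -0.98 and -0.99, did not pass. That of Samhd1 was called without XY 0 h replicate 2 (-1.06, adjusted p = 0.0312 by limma) and by glmTreat. Among 19 adhesion and signalling genes, Irx5 was higher than at 0 h with MEKi (log2 2.89, adjusted p = 0.0271 by limma), at 0 to 0.784 CPM and 2.12 to 3.29 CPM, and Lrrfip1 and Ptgs1 were lower. In DMSO, Itga6 and Ret were higher and Ptgs1, Rhox6, Rhox9 and Sparcl1 lower, of which Rhox9 and Sparcl1 were not called without the carried-over counts (log2 -2.46 and -2.08, against -2.45 and -2.03, adjusted p = 0.0578 and 0.0591 by limma). The call of Irx5 was lost without XY 0 h replicate 2 or 3 or MEKi replicate 6 (adjusted p = 0.0588 to 0.472 by limma).

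Spp1 (osteopontin) was at 4.83, 9.08, 4.46 and 5.88 CPM at 0 h, at 23.8, 19.3, 17.2 and 19.2 CPM in DMSO and at 85.0, 72.2, 63.5 and 86.0 CPM with MEKi. The groups did not overlap (log2 3.49 from 0 h and 1.96 from DMSO, adjusted p = 2.61e-12 and 1.27e-07 by limma). The DMSO change of Spp1 from 0 h was 1.53 (adjusted p = 0.0301 by limma), lost without XY 0 h replicate 2, 5 or 6 or DMSO replicate 2 or 3 (adjusted p = 0.05003 to 0.0921) and without the carried-over counts (log2 1.28, adjusted p = 0.32). Lgals3, which encodes galectin-3, was at 0 in all XY 0 h libraries, 0 to 1.04 CPM in DMSO and 3.71, 5.31, 5.29 and 8.21 CPM with MEKi, a difference from DMSO of 3.90 (adjusted p = 0.00383 by limma), lost without DMSO replicate 4 (adjusted p = 0.0586). Macrophages also express both genes, and of the macrophage markers Lyz2 was at 0 to 1.78 CPM at 0 h and 4.38 to 7.44 CPM with MEKi, while Adgre1 and C1qa were at 0 to 0.548 CPM and Csf1r at 0 to 2.65 CPM in all 12 libraries. The part of these cells in the Spp1 and Lgals3 values was not tested.

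The glycolysis and hypoxia list had a median below that of all genes in both media. Of 28 tested, Aldoa, Eno1, Hk1, Pdk1, Pfkl and Pfkp were lower with MEKi and 0 higher (median log2 change -0.53), and Egln3, Hk1, Ldha, Pfkl and Pfkp were lower in DMSO (-0.44). Pfkp, a phosphofructokinase, was at 85.6, 117, 90.0 and 74.9 CPM at 0 h, 14, 10.4, 39.5 and 22.7 CPM in DMSO and 17.6, 17, 14.8 and 13.7 CPM with MEKi. The cultured groups overlapped each other well below 0 h (log2 -2.15 and -2.55, adjusted p = 1.16e-08 and 6.47e-10 by limma). Hk1, a hexokinase, fell as well (log2 -2.29 in DMSO and -1.43 with MEKi), with a difference of 0.86 (interval 0.38 to 1.34) that did not pass. Pdk1 was the one gene of this list called in the direct test. The call of Pfkl with MEKi (log2 -1.28) was lost without XY 0 h replicate 2, 5 or 6 or any 1 of the MEKi libraries (adjusted p = 0.0699 to 0.114 by limma).

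In cholesterol synthesis, 3 of 22 genes were higher with MEKi (Cyp51, Dhcr7 and Fdps) and 0 lower, at a median log2 change of 0.81, and 2 higher in DMSO (Dhcr7 and Mvk), at a median of 0.75. With MEKi, 5 were called without XY 0 h replicate 2. Dhcr7, which makes cholesterol in the last step, was at 54.4, 53.2, 46.3 and 62.7 CPM at 0 h, 120, 121, 112 and 120 CPM in DMSO and 137, 125, 140 and 146 CPM with MEKi. Every cultured library lay above every 0 h library (log2 1.33 with MEKi and 1.11 in DMSO, adjusted p = 1.41e-06 and 0.000798 by limma). Fdps with MEKi was lost without XY 0 h replicate 3, 5 or 6 or MEKi replicate 4 or 6 (adjusted p = 0.0579 to 0.154 by limma).

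Of 24 stress genes, Mt2 (a metallothionein), Psat1 (of serine synthesis) and Txnrd1 (thioredoxin reductase) were lower both with MEKi and in DMSO. Txnrd1 fell from 90.4 ± 11.8 to 32.9 ± 1.89 CPM (SD, n = 4, log2 -1.48, adjusted p = 3.89e-05 by limma). Mt2 and Psat1 lost their MEKi calls when 1 of several libraries was left out (5 libraries and 6 libraries, adjusted p = 0.062 to 0.131 and 0.075 to 0.162 by limma), and Mt2 also without the carried-over counts (log2 -1.95, adjusted p = 0.0916). Of 26 imprinted genes, limma and DESeq2 called 0 with MEKi v 0 h, glmTreat 1 and the quasi-likelihood test 3, a share of the 26 below that of all genes for both (5.25 and 17.4%), with 2 at an unadjusted p under 0.05 and a median log2 change of 0.10.

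Of the 7 blood markers tested, the globin genes Hba-a2, Hba-x and Hbb-y were higher with MEKi than at 0 h and than in DMSO, at a median log2 change over the 7 of 1.29 from 0 h. Hbb-y, an embryonic globin of red cells, was at 69.8, 17.6, 17.8 and 9.41 CPM at 0 h, at 39.9, 17.7, 0 and 14.1 CPM in DMSO and at 83.6, 73.3, 61.9 and 152 CPM with MEKi. The MEKi libraries lay above DMSO and overlapped 0 h through XY 0 h replicate 2. The log2 change from 0 h was 2.16 (adjusted p = 0.0152 by limma), lost without XY 0 h replicate 3 or 6 or MEKi replicate 6 (adjusted p = 0.1 to 0.215). Hba-x and Hba-a2 lost their calls v 0 h without XY 0 h replicate 3 or 6 or MEKi replicate 6, and Hba-a2 also without MEKi replicate 1 or 2 (adjusted p = 0.0553 to 0.591 by limma). The calls v DMSO were lost for Hbb-y without DMSO replicate 4 or 5 (adjusted p = 0.109 and 0.0885 by limma) and for Hba-a2 without DMSO replicate 4 or 5 or MEKi replicate 1, 2 or 6 (adjusted p = 0.0922 to 1) and without the carried-over counts (log2 1.91, adjusted p = 0.144). DESeq2, tested against 1.5-fold, gave an adjusted p of 1 for all 3 genes in both comparisons. The summed share of the 14 blood markers was 0.00573 to 0.0375% of counts at 0 h, 0.00428 to 0.0139% in DMSO and 0.0209 to 0.0519% with MEKi, and MEKi v 0 h did not pass (p = 0.2, adjusted p = 0.629 by the exact permutation test). Each MEKi library lay above each DMSO library in this share, a difference that was not tested. The part of red cells or of their RNA in other results was not tested.

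**Figure D5:**
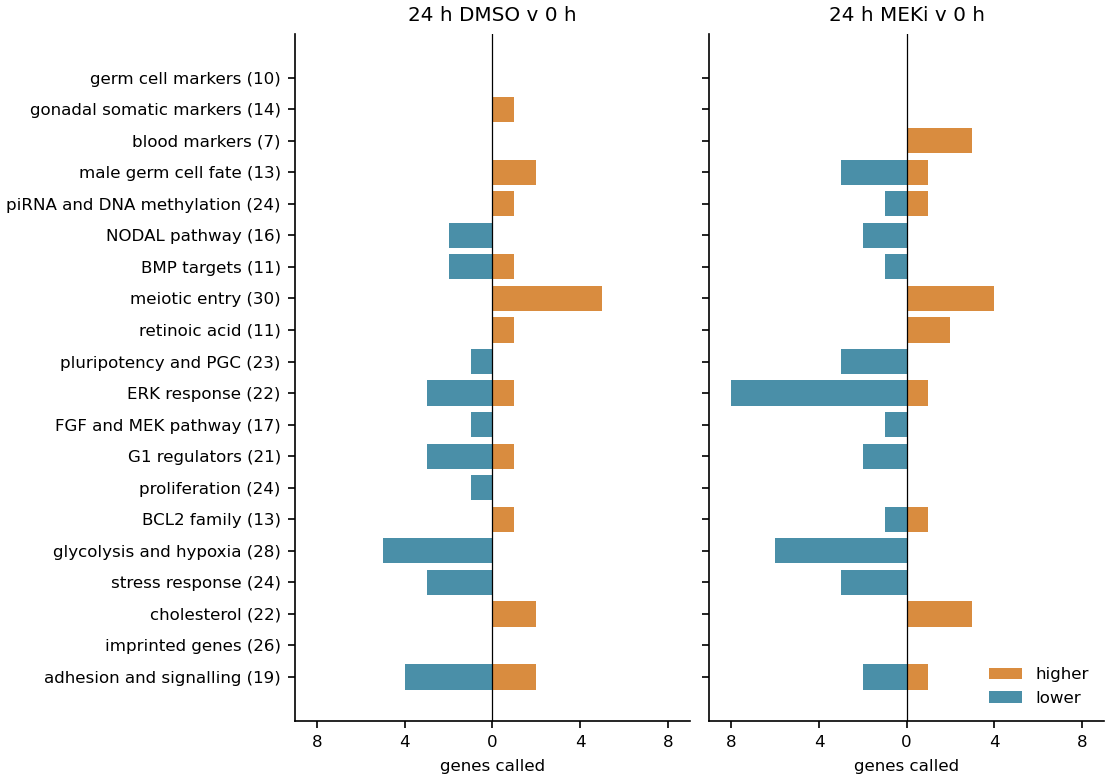
Number of genes called higher (orange, to the right) and lower (blue, to the left) than at 0 h in each of the 20 gene lists, in DMSO (left panel) and with MEKi (right panel). The number tested is in parentheses. The ERK response has 8 genes lower with MEKi and 3 in DMSO, the meiotic list has 4 and 5 higher, and germ cell markers and imprinted genes have 0 in both.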

How the data were processed

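RNA from sorted XY germ cells was primed at the poly(A) tail with a sample index and a unique molecular identifier (UMI). The authors aligned the reads to GRCm39 and deposited raw counts per gene after collapsing UMIs. The annotation release they used is not given in the sources used here, and 40391 of 42422 genes were matched by identifier to GENCODE M39, while the 2031 others held 1.05% of counts. From the counts, TMM-scaled CPM were computed with edgeR 4.0.16, genes were kept by filterByExpr (minimum count 10, minimum total 15), and 15252 genes with 99.2% of counts were fitted by voom with quality weights in limma 3.58.1 (R 4.3.3), with 1 mean for each group over all 40 libraries. The treat test was run against 1.5-fold, and p-values were adjusted over all genes tested. The part of each partner library's counts found under a shared index was estimated from genes that the unpartnered libraries lack, and 2 DMSO libraries took the median share of 4.15%. Intervals cover 95%. Alternatives were other filters, scalings and tools (DESeq2 1.42.0), fewer libraries, a replicate block and removal of the carried-over counts. Marker shares were compared by exact permutation tests. Named genes were members of the lists, every gene called in MEKi v DMSO, and the 15 higher and 15 lower genes (8 and 8 for DMSO v 0 h) with the largest fold change, at least 10 CPM in the higher group and no overlap. The comparison, the lists and the genes were chosen with earlier results of these data known. The scripts were tested on simulated data.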

Additional observations from a re-analysis of the deposited data

Results flagged for a closer look

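The change from 0 h differed between MEKi and DMSO, by the direct test in limma, for 25 genes. The values are log2 differences, MEKi less DMSO. It was higher with MEKi for Calcoco2 (2.44), Spp1 (1.96), Stra8 (2.19), Syne1 (1.40), Lgals3 (3.90) and the globin genes Hba-a2 (2.02), Hba-x (3.18) and Hbb-y (3.55). It was lower for Etv1 (-1.92), Etv4 (-3.96), Nab2 (-3.15), Nanos2 (-3.20), Ret (-4.03), Tmem130 (-2.92), Fbxo41 (-1.62), Pmaip1 (-3.03), Pdk1 (-2.20), Lrrfip1 (-2.04), Samhd1 (-1.36), Dgka (-1.52), Nmi (-2.59), Tor3a (-1.33), Pde6b (-2.95), Nxf2 (-3.29) and Sohlh1 (-4.06). The call of Nmi, at 7.43, 7.44, 11.1 and 0 CPM with MEKi, was lost without MEKi replicate 6 (adjusted p = 1 by limma) or without DMSO replicate 4 or 5 (0.0823 and 0.439). Pde6b lost its call without DMSO replicate 3, 4 or 5 or MEKi replicate 1, 2 or 6 (adjusted p = 0.0693 to 0.497 by limma), Tor3a without DMSO replicate 4 or 5 or MEKi replicate 1, 2 or 6 (0.119 to 0.432), Nxf2 without any 1 of the MEKi libraries (0.06 to 0.49) and Sohlh1 without MEKi replicate 6 (0.0732). Sohlh1, Nxf2 and Hba-a2 lost theirs when the carried-over counts were taken out.

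Single libraries stood apart from the other 3 of their group for 14 of 198 sets of 4 values. For normally distributed values in independent sets, chance would give about 1 in 20. The sets here all come from the same 12 libraries, so they are not independent. In DMSO these were Etv4 at 17.2 CPM in replicate 3, Spry2 at 17.2 CPM in replicate 4, Id3 at 51.3 CPM and Calcoco2 at 18.7 CPM in replicate 2, Pmaip1 at 73.3 CPM in replicate 5, Spocd1 at 10.4 CPM in replicate 3, and Dhcr7 at 112.0 CPM, Esrrb at 55.4 CPM and Samhd1 at 84.2 CPM in replicate 4. With MEKi they were Etv4 at 3.71 CPM and Samhd1 at 28.8 CPM in replicate 1, Tmem130 at 6.88 CPM in replicate 4 and Rec8 at 95.8 CPM in replicate 6. At 0 h it was Hbb-y at 69.8 CPM in replicate 2.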

How the results depend on the processing

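The number of genes called moved most with the test. For MEKi v 0 h it was 541, against 2857 with limma's test against no change plus an observed fold over 1.5, 2647 with edgeR's quasi-likelihood test used in the same way, and 332 to 546 when 1 library was left out. For DMSO v 0 h it was 449, against 2330 and 2266 with these tests, 702 with edgeR's glmTreat, and 263 to 455 with 1 library left out. For MEKi v DMSO it was 25, against 556, 574 and 39 with the same tests, and 19 to 31 with 1 library left out. Among the fits with 1 library left out, the lowest counts of the first 2 comparisons came without XY 0 h replicate 3. With the replicate block the counts were 280, 291 and 9. In that fit the differences of Nanos2 (log2 -2.78, adjusted p = 0.872 by limma) and Ret (-3.62, adjusted p = 0.513) between MEKi and DMSO were not called. Replicate numbers gave no sign of pairing, since the correlations of same-numbered libraries lay between -0.108 and 0, and XY 0 h and XY 24 h MEKi share only the numbers 2 and 6. These correlations cannot show whether same-numbered libraries shared a litter or culture day. Of the named genes called in MEKi v 0 h, 48 of 82 kept their call in every alternative that gave a value. So did 17 of 34 followed in DMSO v 0 h and 8 of 25 in MEKi v DMSO. The 34 leave out some genes named above as called in DMSO, such as Rspo1, Ccne1 and Rrm2. The direction turned once, for Nxf2 in MEKi v DMSO, at 0.69 with the carried-over counts taken out. Taking them out gave 326 higher and 275 lower genes in MEKi v 0 h, with 251 of the 255 and 274 of the 286 still called. In DMSO v 0 h it gave 250 and 186, with 220 of the 246 higher and 173 of the 203 lower still called, and in MEKi v DMSO 9 and 15, with 7 of the 8 and 15 of the 17.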
